A study of Aloe vera with 7 samples.

Results

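SWEET proteins are small membrane carriers that let sugars cross a membrane down their concentration gradient, in contrast to the proton-coupled carriers that can work against it. In Arabidopsis thaliana the family is divided into clades: members of clades I and II carry mainly hexoses, those of clade III mainly sucrose, and those of clade IV sit in the vacuolar membrane and move fructose and other sugars. In leaves clade III proteins release sucrose towards the phloem, and clade IV proteins exchange vacuolar sugar in leaves and roots. The SWEET genes described here are the probe sets that the platform's probe annotation assigns to a single gene named SWEET followed by a number. This gave 9 probe sets, 1 for each of SWEET3, SWEET6, SWEET7, SWEET9, SWEET10, SWEET13, SWEET14, SWEET16 and SWEET17, among 11100 single-gene probe sets and 18810 probe sets tested in all. Names were looked up only for probe sets in the deposited table, so a SWEET probe set absent from it would not be seen. The deposited table held 18874 probe sets with controls, and every share over all probe sets is taken within it. Whether others were removed before deposit is not described, and the 9 passed through no further filter here. The gene SWEETIE, which shares the letters but not the number, was left out.

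RNA was taken from 2 tissues of the succulent monocot Aloe vera, leaf and root, and hybridised to ATH1 arrays made by Affymetrix for Arabidopsis. Each value thus measures binding of Aloe RNA to probes of an Arabidopsis gene, whose name it carries. There were 3 leaf RNA arrays and 3 root RNA arrays, and 1 array of genomic DNA whose column held 0 values and entered no comparison. The labels describe a mature plant from a garden centre, kept at room temperature in the laboratory with no treatment named, and do not give the number of plants behind the replicates. The p-values therefore cover the spread between these samples alone, and that spread may be technical. No age or cultivar is named.

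Each deposited value was a log2 value centred so that the median of a probe set over the 6 RNA arrays was 0. The values give differences between arrays of a probe set, not signal levels, and they do not show whether a SWEET signal exceeded background. The number of arrays limited the precision: the standard error of a root minus leaf difference was between 0.20 and 0.30 log2 for the 9 SWEET probe sets, against a median of 0.26 log2 over all probe sets tested. Leaf replicate 2 stood apart in the array's 25S ribosomal RNA control, at -4.72 log2, where the other RNA arrays lay between -0.90 and 1.08 log2. The tissue labels were compared with marker genes. Of 18 leaf marker names 8 were found, and all 8 had a higher mean in leaf. CAB1 and LHCB1.3, among the names not found, are the same locus. Averaged over the 8 found, the leaf arrays stood at 1.35, 0.49 and 1.64 log2 for replicates 1 to 3. The root arrays stood at -0.76, -0.72 and -0.59 log2. Of these 8 markers, psbB and psbC of photosystem II passed the threshold of an adjusted p under 0.05 in limma. The average rests mainly on psbA, psbB, psbC and psbD, whose root minus leaf differences lay between -3.75 and -2.46 log2. For RCA, LHCB4.1, LHCB4.2 and rbcL the differences lay between -0.73 and -0.28 log2. Leaf and root arrays overlapped in RCA and LHCB4.2. Of 16 root markers only the root hair expansin genes EXPA7 and EXPA18 were found, with root minus leaf differences of 0.084 and 0.082 log2 that did not pass, so the root label was not borne out by its markers here. Of 8 phloem markers 0 were found by name, so the phloem content of the samples was not measured. In such bulk samples, fewer cells of a type and less RNA per cell cannot be told apart.

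Root RNA was compared with leaf RNA to ask which probe sets bound unequal amounts in the tissues. Among the SWEET genes, SWEET3 had the widest separation: its signal was 1.70-fold higher in leaf, and its leaf and root arrays did not overlap. The other 8 SWEET probe sets had overlapping leaf and root values and mean differences of at most 1.31-fold. In limma 0 of the 9 passed the adjusted threshold of 0.05, where 0.34% of all 18810 probe sets passed, and 1, SWEET3, had an unadjusted p under 0.05, where 9.56% of all did. Leaf and root arrays were separated in 1 of the 9, and in 15.1% of all probe sets (6.87% with leaf higher). A share of 1 in 9 is near these backgrounds and is not a result about the family.

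**Figure D1:**
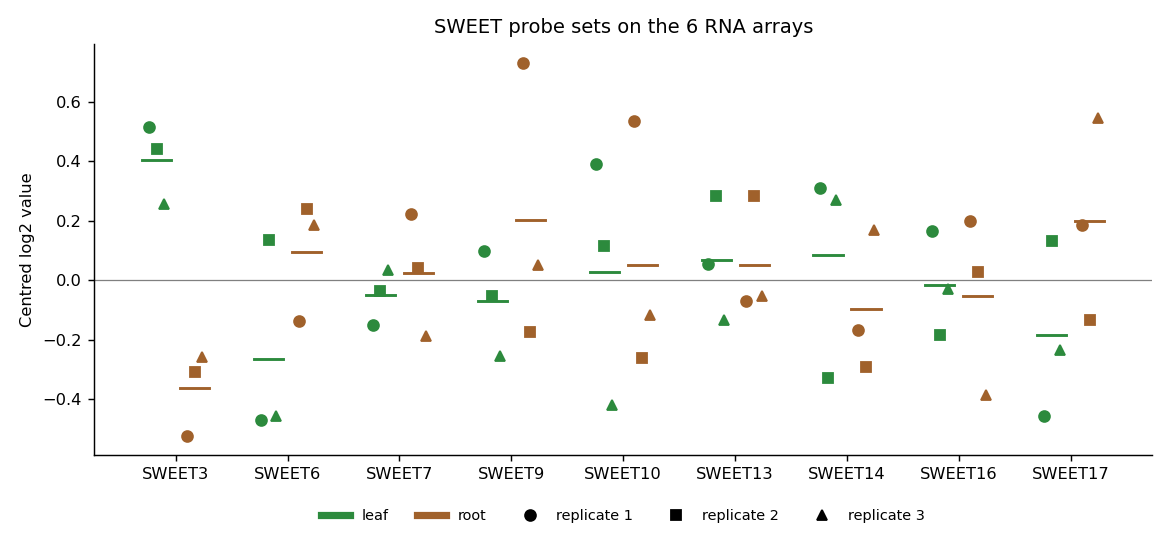
Centred log2 values (vertical axis) of the 9 SWEET probe sets (horizontal axis) on the 3 leaf arrays (green) and 3 root arrays (brown), with replicates 1, 2 and 3 as circles, squares and triangles and horizontal bars for the tissue means. SWEET3 has its leaf arrays between 0.26 and 0.52 and its root arrays between -0.52 and -0.26 log2, and in the other 8 the tissues overlap.

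SWEET3 (probe set 248245_at) is the only clade I gene among the 9, a clade whose characterised members carry mainly glucose and related hexoses. Its centred values were 0.52, 0.44 and 0.26 log2 on leaf replicates 1 to 3 and -0.52, -0.31 and -0.26 log2 on root replicates 1 to 3. All leaf arrays were above 0 and all root arrays below it, with a gap of 0.51 log2 between the lowest leaf and the highest root value. The centring places 0 midway between these inner values, so their equal size is a property of the scale. The mean was 0.41 ± 0.13 log2 in leaf and -0.36 ± 0.14 log2 in root (SD, n = 3 arrays each), and both SDs were under the medians over all probe sets, which were 0.29 log2 in leaf and 0.29 log2 in root. Of the 1293 probe sets with all leaf arrays above all root arrays, 231 had a wider gap than SWEET3, and the median gap was 0.18 log2.

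The root minus leaf difference of SWEET3 was -0.77 ± 0.20 log2 (SE), with a 95% interval from -1.22 to -0.31 log2, or 1.24-fold to 2.33-fold higher in leaf. Its unadjusted p was 0.00467 and its adjusted p 0.227 in limma, so it did not pass over all probe sets. It ranked 386th by p among the 18810, and 7.13% of all probe sets had a difference of at least its size in either direction. The smallest difference that passed anywhere on the array was 2.62-fold, and the largest unadjusted p that passed was 0.000153. An exact permutation test (two-sided) of the leaf against the root values gave p = 0.1, and 3 arrays against 3 cannot give less. SWEET3 was higher in leaf in all 3 replicate pairs, by 1.04, 0.75 and 0.51 log2 for numbers 1, 2 and 3 (root minus leaf -1.04, -0.75 and -0.51 log2), a direction shared by all 3 pairs with leaf higher in 14.8% of all probe sets. The exact test that swaps tissues within pairs (two-sided) gave p = 0.25, and 3 pairs cannot give less. With leaf and root arrays that did not overlap, leaf had to be higher in every pair. Both exact tests then had to give their smallest p, so the pairs and these tests add nothing to the separation.

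Since the leaf and root arrays of SWEET3 did not overlap, leaving out any 1 of them had to keep leaf above root. Only the size of the difference could change. Of the 6 fits with 1 array left out, the one lacking leaf replicate 3 gave the largest difference, -0.84 log2, and the one lacking root replicate 1 the smallest, -0.69 log2. Without leaf replicate 2, the array that stood apart in its ribosomal RNA control, it was -0.75 log2 with an adjusted p of 0.412. The unadjusted p was under 0.05 in all 13 limma fits run, from 0.00158 to 0.0203, and the adjusted p ranged from 0.111 to 0.493, so that none of these fits called it. These fits reuse the same arrays and are not independent of each other.

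**Figure D2:**
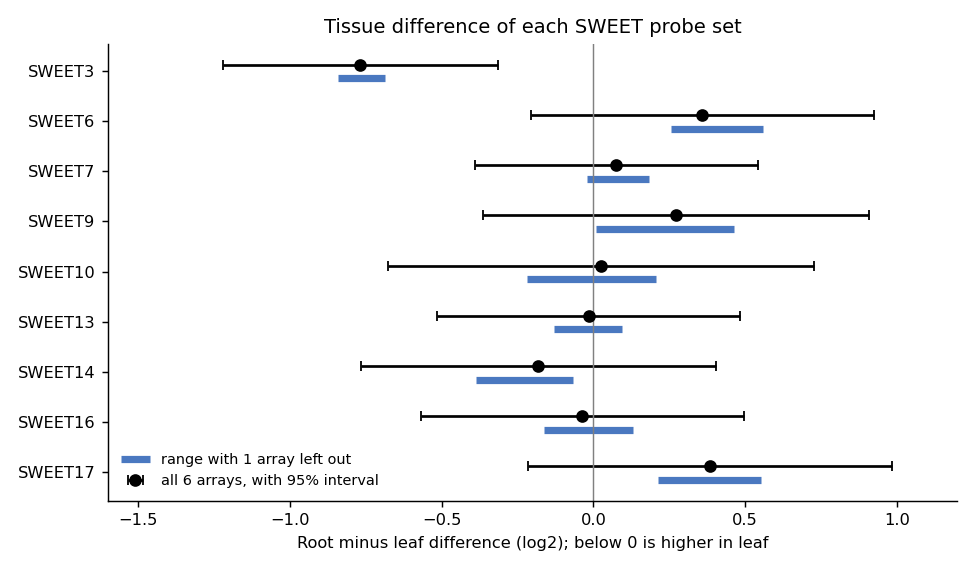
Root minus leaf difference in log2 (horizontal axis) of each SWEET probe set, as black points with 95% intervals from limma over 6 arrays, and as blue bars for the range when 1 array is left out. The interval of SWEET3 runs from -1.22 to -0.31 log2, and the other 8 intervals include 0.

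Among the 9, clade II was represented by SWEET6 and SWEET7. Clade II genes of Arabidopsis are hexose carriers, several of them active in flowers and pollen. SWEET6 (256371_at) stood at -0.47, 0.14 and -0.46 log2 on leaf replicates 1 to 3 and at -0.14, 0.24 and 0.19 log2 on root replicates 1 to 3. Leaf replicate 2 lay among the root arrays while the other leaf arrays lay below them all. The root minus leaf difference was 0.36 ± 0.24 log2 (SE; 95% interval -0.21 to 0.92; limma adjusted p = 0.738), and it was 0.56 log2 without leaf replicate 2 (adjusted p = 0.553). Root was higher in all 3 pairs of SWEET6, which with SWEET3 makes 2 of 9 SWEET genes with 1 direction in every pair, against 34.3% of all probe sets.

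SWEET7 (254956_at) stood at -0.15, -0.035 and 0.035 log2 in leaf and at 0.22, 0.042 and -0.19 log2 in root. Its root arrays spanned the whole range of its leaf arrays, and its total range of 0.41 log2 was the narrowest of the 9. The difference was 0.076 ± 0.20 log2 (SE; 95% interval -0.39 to 0.54; limma adjusted p = 0.953), and its sign turned without root replicate 1 (-0.022 log2).

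Clade III, the sucrose carriers, was represented by 4 of the 9 genes, whose differences ran from -0.18 to 0.27 log2. In limma 0 of them passed, where 0.34% of all probe sets did. SWEET15, listed under an older name, is given apart below and is not counted here. SWEET9 is the carrier through which Arabidopsis flowers secrete sucrose into nectar. Its probe set (266201_at) stood at 0.098, -0.053 and -0.25 log2 in leaf and at 0.73, -0.17 and 0.053 log2 in root. Root replicate 1, at 0.73 log2, was the highest value of any SWEET probe set on any array, and the other root arrays lay inside the leaf range. The difference was 0.27 ± 0.27 log2 (SE; 95% interval -0.36 to 0.91; limma adjusted p = 0.835), and without root replicate 1 it was 0.0084 log2.

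SWEET10 is a sucrose carrier gene that in Arabidopsis responds to the switch to flowering at the shoot apex. Its probe set (248496_at) stood at 0.39, 0.11 and -0.42 log2 in leaf and at 0.54, -0.26 and -0.11 log2 in root. Each tissue had a high first replicate and the spread within tissues, with SDs of 0.41 and 0.42 log2, far exceeded the difference of 0.024 ± 0.30 log2 (SE; 95% interval -0.68 to 0.73; limma adjusted p = 0.991). Its sign turned without leaf replicate 3 (-0.20 log2) and without root replicate 1 (-0.22 log2).

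SWEET13 and SWEET14 are close relatives that export sucrose and, in Arabidopsis anthers, also move gibberellin. SWEET13 (248467_at) stood at 0.054, 0.28 and -0.13 log2 in leaf and at -0.071, 0.28 and -0.054 log2 in root. Replicate 2 was the high array in both tissues, with the same value in each, and the difference of -0.015 ± 0.22 log2 (SE; 95% interval -0.51 to 0.48; limma adjusted p = 0.991) was the smallest of the 9 in size. Its sign turned without leaf replicate 2 (0.093 log2), root replicate 1 (0.047 log2) or root replicate 3 (0.038 log2).

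SWEET14 (254090_at) stood at 0.31, -0.33 and 0.27 log2 in leaf and at -0.17, -0.29 and 0.17 log2 in root. Leaf replicates 1 and 3 were above every root array, while leaf replicate 2 was below them all. The difference was -0.18 ± 0.25 log2 (SE; 95% interval -0.77 to 0.40; limma adjusted p = 0.895), and it passed in none of the 6 fits with 1 array left out. It was -0.39 log2 without leaf replicate 2, and it shrank to -0.068 log2 without leaf replicate 1, -0.089 log2 without leaf replicate 3 and -0.084 log2 without root replicate 2.

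For clade IV the probe sets of both Arabidopsis vacuolar carriers were present. Whether either bound Aloe RNA above background is not known. SWEET16 (258421_at), a vacuolar carrier of glucose, fructose and sucrose, stood at 0.17, -0.18 and -0.029 log2 in leaf and at 0.20, 0.029 and -0.39 log2 in root. The root arrays spanned the leaf range on both sides, and the difference was -0.037 ± 0.23 log2 (SE; 95% interval -0.57 to 0.50; limma adjusted p = 0.983). Its sign turned without leaf replicate 1 (0.054 log2) or root replicate 3 (0.13 log2), and with arrays weighted by quality (0.018 log2).

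SWEET17, the fructose carrier of the vacuolar membrane that in Arabidopsis is active in roots and sets leaf fructose content, had a mean difference on the root side of about the same size as SWEET6; the order of these genes changed with the array left out. Its probe set (245524_at) stood at -0.45, 0.13 and -0.23 log2 in leaf and at 0.19, -0.13 and 0.55 log2 in root. Root replicates 1 and 3 were above every leaf array, and in the second pair the order was turned, with leaf at 0.13 and root at -0.13 log2. The difference was 0.39 ± 0.26 log2 (SE; 95% interval -0.21 to 0.98; limma adjusted p = 0.733). It was 0.21 log2 when root replicate 3 was left out and 0.55 log2 when root replicate 2 was.

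The 9 SWEET probe sets did not move one way. The leaf mean was the higher one in 4 genes and the root mean in 5, and their median difference was 0.024 log2, against a median of 0.034 log2 over all probe sets. The direction of SWEET7, SWEET10, SWEET13 and SWEET16 turned in at least 1 alternative, as given above, so the split by direction rests on values near 0. The median size of the difference, whatever its direction, was 0.18 log2 for the 9 and 0.23 log2 over all. For the 8 genes other than SWEET3 the 95% intervals reached no farther than 1.43-fold to 1.98-fold in either direction. These intervals are not adjusted for the number of genes, hold for bound signal, and do not show that the tissues were alike.

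**Figure D3:**
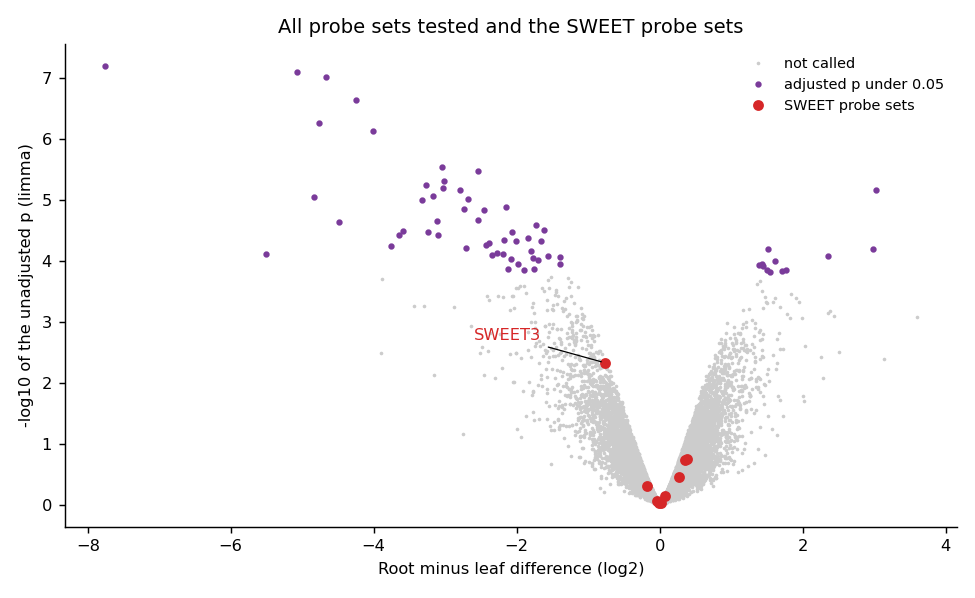
Root minus leaf difference in log2 (horizontal axis) against -log10 of the unadjusted limma p (vertical axis) for all 18810 probe sets in grey, the 64 with an adjusted p under 0.05 in purple and the 9 SWEET probe sets in red. SWEET3, at -0.77 log2, lies below every called probe set, and the other 8 SWEET probe sets lie near the base.

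Single arrays differed in how often they held the extreme of a SWEET gene. Root replicate 1 held the highest value in 4 of the 9 genes, SWEET7, SWEET9, SWEET10 and SWEET16, and the lowest in SWEET3. Over all probe sets that array was the highest in 16.4% and the lowest in 11.2%. Leaf replicate 3 held the lowest value in SWEET9, SWEET10 and SWEET13 and the highest in 0. Over all probe sets leaf replicate 3 was the lowest in 19.2% and the highest in 16.04%. The highest value of SWEET13 was shared by leaf replicate 2 and root replicate 2.

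The SWEET profiles were also compared with each other by the root mean square of their differences over the 6 RNA arrays, in log2. A small value means like values array by array. The measure depends on the size of the values as well as on their pattern, so probe sets with narrow ranges tend to lie close. SWEET7 and SWEET13 had the narrowest ranges, 0.41 and 0.42 log2, and SWEET3 the widest, 1.04 log2. Of 36 pairs, SWEET7 and SWEET16 were closest at 0.167, followed by SWEET9 and SWEET10 at 0.190, and SWEET7 and SWEET13 at 0.236. SWEET3 stood farther off: its 8 pairs lay between 0.397 and 0.641, and the 28 pairs without it between 0.167 and 0.522. The least alike pair was SWEET3 and SWEET17.

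By the same measure, the 5 single-gene probe sets nearest to SWEET3 among the 11100 were AT1G29250 at 0.107, AT3G54190 at 0.118, AT2G07360 at 0.123, AT4G30130 at 0.125 and AT2G38730 at 0.128. Their root minus leaf differences lay between -0.94 and -0.69 log2, around that of SWEET3, with limma adjusted p-values between 0.161 and 0.337. As with SWEET3, all 5 were above 0 on each leaf array and below 0 on each root array and did not pass. The 5 were picked for likeness on these same 6 arrays, which share their centring. Their shared signs and similar differences therefore follow largely from the choice.

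**Figure D4:**
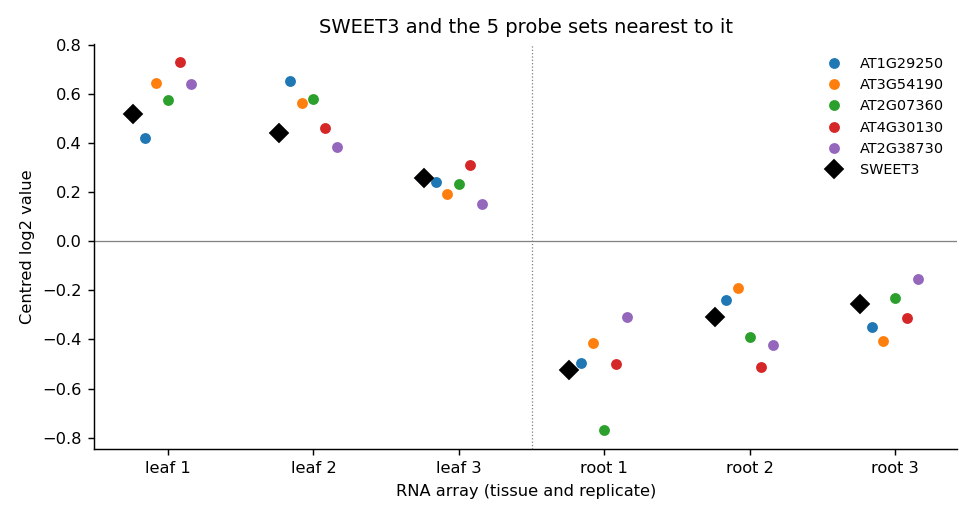
Centred log2 values (vertical axis) of SWEET3 (black diamonds) and the 5 nearest single-gene probe sets (coloured circles) on the 3 leaf and 3 root arrays (horizontal axis). All 6 probe sets lie above 0 on the leaf arrays and below 0 on the root arrays.

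The nearest probe sets of the other SWEET genes were found in the same way. For SWEET6 they were AT5G54050, AT5G05180, AT2G20710, AT3G29635 and AT1G78200, at 0.0640 to 0.107. For SWEET7 they were AT3G47590, the carboxypeptidase-like gene SCPL49, AT3G18680, AT5G42440 and the F-box gene FBL17, at 0.0457 to 0.0625. For the clade III genes the nearest were AT4G01930, AT4G03290, AT5G55180, AT2G43600 and AT3G27770 for SWEET9 (0.0406 to 0.0908), and AT5G39090, AT3G14240, AT4G22160, AT2G12250 and AT2G26200 for SWEET10 (0.0708 to 0.118). SWEET13 had AT1G42410, AT5G58150, AT3G43970, SE (SERRATE, a factor of microRNA processing) and KPL at 0.0427 to 0.0586, and SWEET14 had AT3G12170, AT3G16220, AT2G17970, AT3G13800 and AT1G74910 at 0.0698 to 0.0873. SWEET16 had the nearest match of all, the isocitrate dehydrogenase gene IDH-VI at 0.0290, then AT1G28030, AT1G43260, AT3G09580 and AT5G54855 up to 0.0803. SWEET17 had AT5G58100, AT4G03880, AT1G17510, AT3G02820 and AT1G34842 at 0.0721 to 0.0972. No SWEET gene was among the 5 nearest of another.

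The Arabidopsis family has 17 SWEET genes, and a further 2 of them were listed under older names. SAG29, a senescence-associated gene also known as SWEET15, stood at 0.085, 0.12 and -0.46 log2 in leaf and at -0.22, 0.53 and -0.085 log2 in root. AtVEX1, a gene of the pollen vegetative cell also known as SWEET5, stood at -0.0074, 0.0074 and 0.13 log2 in leaf and at -0.44, 0.029 and -0.21 log2 in root. Leaf and root overlapped in both, with differences of 0.16 ± 0.28 log2 for SAG29 and -0.25 ± 0.21 log2 for AtVEX1 (SE; limma adjusted p = 0.921 and 0.782). With these, 11 of the 17 had a named probe set and 0 passed, where 0.34% of all probe sets passed. The other 6, SWEET1, SWEET2, SWEET4, SWEET8, SWEET11 and SWEET12, were not found by name and are not analysed here.

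Other genes that move or make transport sugar were read from lists of 83 genes, of which 17 were found by name. In limma 0 of the 17 passed over all probe sets, where 0.34% of all passed, and 2 had an unadjusted p under 0.05, AT3G19940 and AT2G20780, where 9.56% of all did. Their median difference was -0.076 log2, with 10 means higher in leaf and 7 in root, and leaf and root did not overlap in 2, where 15.1% of all probe sets had no overlap. These counts are near the shares over all probe sets. Of the 9 proton-coupled sucrose carriers, the partners of SWEETs in phloem loading, 0 were found by name.

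Of 14 proton-coupled hexose carriers of the STP family, 4 were found, with a median difference of -0.32 log2. AT3G19940 (STP10, a pollen tube glucose carrier in Arabidopsis) stood at 0.27, 0.14 and 0.54 log2 in leaf and at -0.25, -0.14 and -0.34 log2 in root. Like SWEET3 its tissues did not overlap, with a difference of -0.56 ± 0.20 log2 (SE; limma adjusted p = 0.428). AT5G26250 (STP8) differed by -0.56 ± 0.29 log2, AT5G61520 (STP3) by 0.18 ± 0.29 log2 and AT1G34580 (STP5) by -0.077 ± 0.26 log2 (limma adjusted p = 0.618, 0.917 and 0.963 in this order).

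Of 30 other carriers, of the vacuole, of polyols, of inositol and of plastids, 8 were found, with a median difference of -0.0099 log2. AT2G20780, of the polyol and monosaccharide carrier family, had the largest difference of the sugar genes read and lay on the root side. It stood at -0.83, -0.17 and -0.76 log2 in leaf and at 0.17, 0.70 and 0.57 log2 in root, without overlap, and its difference was 1.07 ± 0.26 log2 (SE; limma adjusted p = 0.202). The vacuolar sugar carrier gene TMT2 differed by -0.24 ± 0.22 log2, AT5G17010 by -0.22 ± 0.21 log2 and AT5G59250 by -0.20 ± 0.21 log2 (limma adjusted p = 0.810, 0.816 and 0.844 in this order).

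Of 30 genes of sucrose synthesis and cleavage 5 were found, with a median difference of -0.044 log2. The sucrose phosphatase gene AT2G35840, whose product completes sucrose synthesis, differed by 0.65 ± 0.44 log2, and its relative AT3G54270 by -0.58 ± 0.56 log2 (limma adjusted p = 0.738 and 0.827). The vacuolar invertase gene AT1G62660 differed by -0.16 ± 0.26 log2 and the cell wall invertase-like gene cwINV6 by 0.21 ± 0.47 log2 (adjusted p = 0.915 and 0.943). In all 5 leaf and root arrays overlapped, where 15.1% of all probe sets had no overlap.

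**Figure D5:**
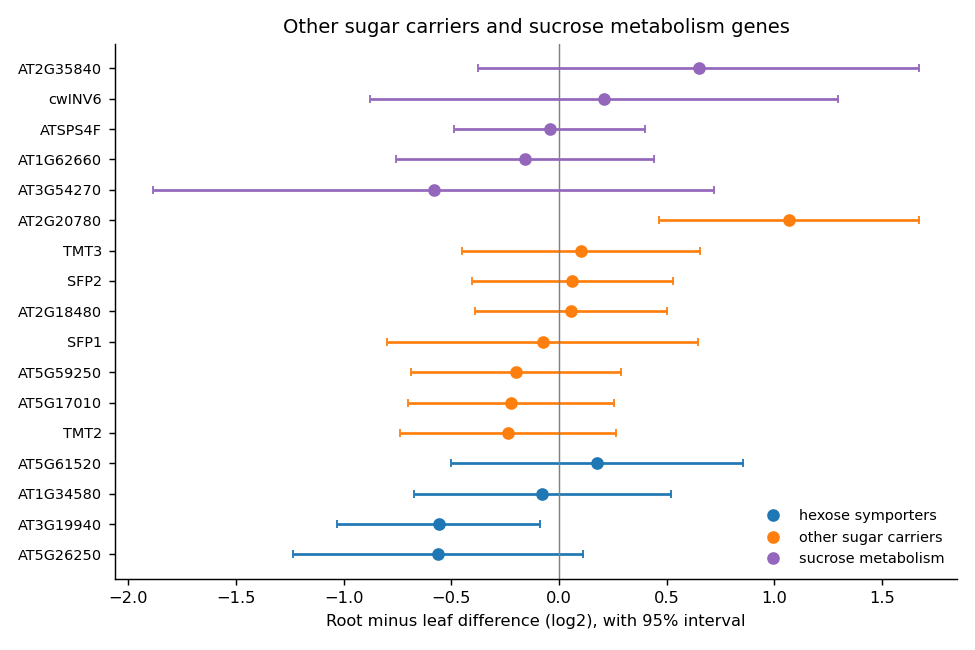
Root minus leaf difference in log2 (horizontal axis) with 95% intervals from limma for 17 other genes of sugar transport and sucrose metabolism, coloured by list. AT2G20780 lies at 1.07 log2 and AT3G19940 at -0.56 log2, and the intervals of the other 15 include 0.

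The steps between the deposited numbers differed between SWEET genes. Values that are held as 32-bit numbers have a step that doubles with each doubling of the number, so the step keeps a coarse trace of the size before centring; that the authors' values were such numbers is not stated in the sources used here. By the finest step seen, SWEET9 fell in the class of 8 to 16 on the log2 scale, which held 8.35% of all probe sets. SWEET3, SWEET10, SWEET13, SWEET14 and SWEET16 fell in the class of 4 to 8 (55.4% of all), and SWEET6, SWEET7 and SWEET17 in that of 2 to 4 (35.8% of all). A probe set whose arrays straddle a class border falls in the lower class, and the classes entered no test.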

How the data were processed

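The deposited table holds log2 values that the authors made with RMA (background correction, quantile normalization and probe summary), per the submitters' processing notes. The RMA version and the log base are not given in the sources used here; base 2 was taken, as RMA writes by default. Per the labels, 250 ng of total RNA per array was labelled. Probe sets had been centred: in the values, no median over the 6 RNA arrays was farther from 0 than 5e-07. Neither this step nor any filter is described.

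Control probe sets (64) were left out. Root minus leaf was fitted over the remaining 18810 with limma 3.58.1 (lmFit, eBayes; R 4.3.3) on 3 leaf and 3 root arrays with no covariate, with Benjamini-Hochberg adjustment over all and a threshold of 0.05. The prior degrees of freedom were 3.80 and the residual ones 4. Summaries used Python 3.11.15, NumPy 2.4.6 and pandas 2.3.3. The fit was tested on simulated data with changes larger than any SWEET difference here, so recovery of differences of the SWEET size was not tested. Of the 18810, 11100 carry 1 gene in the probe table, 350 several and 7360 none listed; names are from that annotation, and no probe or gene sequence is shown.

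Named were all SWEET probe sets, the 5 nearest of each, and up to 4 genes a list, called ones first and then by p. SAG29, AtVEX1 and ATSPS4F were matched by older names after the table was read. The members and lists were chosen with earlier results of these data known. The closest arrays, root replicates 1 and 3, differed by a median of 0.301 log2, so none was a duplicate.

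Same-numbered leaf and root arrays correlated by 0.12, 0.37 and 0.25 for numbers 1, 2 and 3 (Pearson). The correlation is across probe sets, of deviations from the tissue means. Arrays of different numbers gave values from -0.29 to 0.064, the highest for leaf replicate 1 with root replicate 3. Deviations from a mean over 3 arrays sum to 0, so these values are not independent. Each same-number value was above every value for different numbers, and the numbers were taken as pairs, an assumption that the labels do not settle. The differences, errors and p-values reported come from the fit without pairs; pairs enter the replicate block and the counts by pair. Alternatives were the replicate block, quantile normalization, array centring, a variance trend with robust fitting, array weights, leaving out probe sets with shared sequence, leaving out each array, and an exact permutation test.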

Additional observations from a re-analysis of the deposited data

How the results depend on the processing

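In 13 limma fits, 0 of the 9 SWEET probe sets passed the adjusted threshold of 0.05, nor did any of the 11 SWEET genes counted with older names or of the 17 other sugar genes. With the replicate number as a block (replicate block), SWEET3 had an adjusted p of 0.236 at the same difference of -0.77 log2, and no SWEET call changed. The block changed the standard errors in both directions: that of SWEET3 rose from 0.20 to 0.21 log2, and that of SWEET10 fell from 0.30 to 0.22 log2. SWEET3, SWEET6, SWEET9, SWEET14 and SWEET17 kept their direction in every fit. With 1 array left out, the difference ranged from -0.022 to 0.18 log2 for SWEET7, from -0.22 to 0.21 log2 for SWEET10, from -0.13 to 0.093 log2 for SWEET13 and from -0.16 to 0.13 log2 for SWEET16, with turned signs among them. SWEET16 was also turned with array weights, at 0.018 log2. On the whole array 52 probe sets passed on the leaf side and 12 on the root side. A variance trend with robust fitting gave 115 and 40, and leaving out 1 array, which leaves fewer samples, gave 7 to 28 and 0 to 5; why the counts rose under the trend was not tested. The trend rested on centred values, without signal levels, and for the same reason no filter on dim probe sets was run. Signal over background is not known, which limits every value near 0.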
